A study of Mus musculus with 20 samples.

Results

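Mouse kidneys collected 3 d after long or short bilateral ischemia were compared for their cellular composition. The items compared were the 18 cell clusters of the authors' main annotation, which are also all clusters of that annotation, and the members of the comparison were 4 of its 18 libraries with 13901 of 113579 cells. Male C57BL/6 mice aged 10 to 12 weeks had both renal pedicles clamped for 23 min (IRI short) or 30 min (IRI long) under isoflurane, and every operated animal received buprenorphine. These groups carried no transgene and received no inhibitor, and each library was taken as 1 mouse. IRI short at 3 d was represented by the libraries IRF3 and IRF11 and IRI long at 3 d by IRF4 and IRF7, named after the prefix of their cell barcodes. The cell names did not say which numbered sample of a group a library was. Since cells had been dissociated enzymatically and strained before droplet capture, a share of cells describes the recovered suspension, and fewer cells of a type cannot be told apart from poorer recovery of that type.

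Ischemia and reperfusion injure the tubular epithelium, above all the proximal tubule, whose cells depend on oxygen. In the following days neutrophils and monocytes enter the tissue, monocytes can mature into macrophages, surviving tubule cells divide, and stromal cells can become matrix-producing myofibroblasts. Day 3 lies between the early neutrophil-rich phase and later repair or scarring, and the longer clamp was included by the study as the injury that repairs less completely.

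The libraries held 2967 cells (IRF3), 4086 cells (IRF11), 4784 cells (IRF4) and 2064 cells (IRF7), against a range of 2064 to 14320 over all 18 libraries, so IRF7 was the smallest library of all. No pair of them shared more than 6 barcodes, and no shared barcode lay in the same cluster in both libraries. The deposited tables used here hold a cluster, a group and a map position for each cell but no transcript counts, so the cluster names could not be checked against marker genes. All 4 lay below the median library of 6356 cells. All intervals of single shares are exact 95% binomial (Clopper-Pearson) intervals and cover counting error only.

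**Figure D1:**
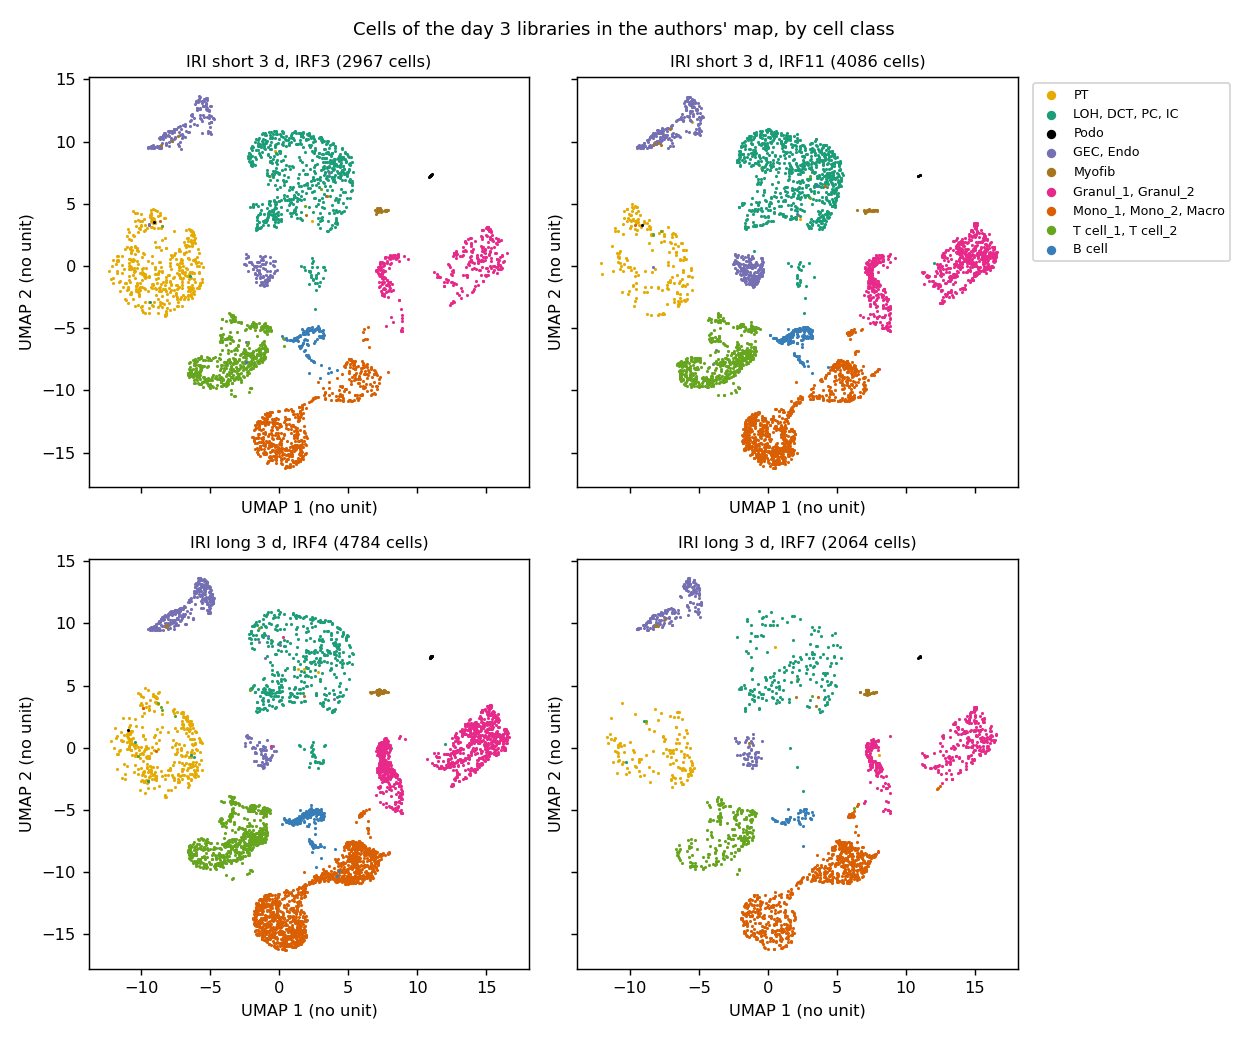
Position of each cell of the 4 day 3 libraries on the authors' 2-dimensional map (UMAP 1 and UMAP 2, no unit), 1 panel for each library, coloured by cell class. The tubule cells of LOH, DCT, PC and IC fill the upper middle of both IRI short panels more densely than those of IRI long, where they made up 9.62% and 9.40% of cells.

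Across all cells, loop of Henle, distal convoluted tubule and T cell_1 shares were lower in both IRI long libraries than in both IRI short libraries, and Mono_1, Granul_2, Endo and Myofib shares were higher in both. That made 7 of 18 clusters without overlap, or 38.9%, with 4 above and 3 below. Taken within its own compartment (8 immune or 10 non-immune clusters), the number without overlap was 8 of 18, or 44.4%, with Mono_1, Endo and Myofib above and LOH, DCT, Macro, T cell_1 and B cell below. If libraries were shuffled between the groups, a cluster would separate with a probability of 0.333. Both shares, 38.9% and 44.4%, lie near that value, so a lack of overlap is not by itself a sign of a difference. Of all cells, 11 of 18 clusters overlapped at 3 d, against 8 at 1 d and 7 at 14 d. With 2 libraries a group, an exact two-sided permutation test cannot go below p = 0.333, so the test used was limma on the logit of the share, fitted to all 18 libraries with 1 mean for each of the 7 groups and adjusted over the 18 clusters (Benjamini-Hochberg).

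By that limma test no cluster passed an adjusted p of 0.05, neither of all cells (percent called 0) nor within compartments (percent called 0). At an unadjusted p under 0.05 there were 3 clusters of all cells (DCT, Mono_1 and LOH) and 2 within compartments (Myofib and DCT). The fold between group means was wider than the fold between libraries inside either group for 5 clusters of all cells (LOH, DCT, Endo, Myofib and Mono_1). Within compartments it was wider for these 5 and for Macro and T cell_1. The values below are therefore differences between 2 pairs of libraries, and a p above the threshold does not show that 2 shares were equal.

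**Figure D2:**
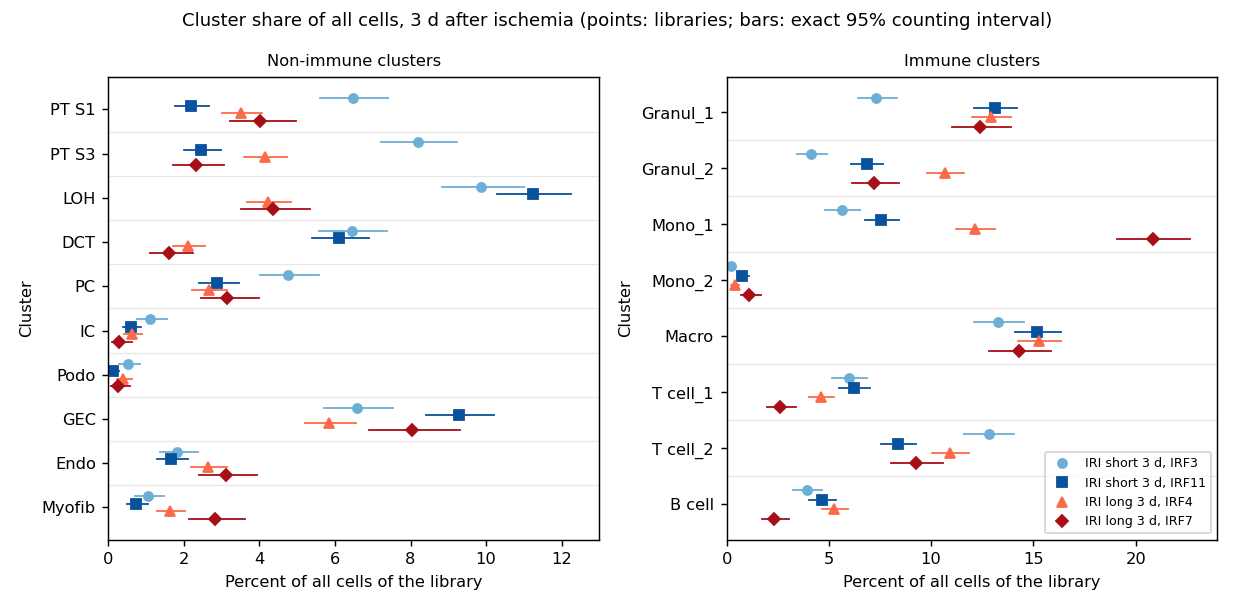
Share of all cells (x axis, percent) for the 10 non-immune and 8 immune clusters, with 1 point for each day 3 library and its exact 95% counting interval. LOH and DCT lie lower in both IRI long libraries (red) than in both IRI short libraries (blue), and Mono_1 lies higher, at 12.1% and 20.8% against 5.63% and 7.56%.

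By the names of the main annotation, the immune share was higher in both IRI long libraries than in both IRI short libraries. Immune cells made up 53.2% of cells in IRF3 and 62.8% in IRF11, against 72.2% in IRF4 and 70.1% in IRF7. Put as a ratio, there were 1.14 and 1.69 immune cells for each non-immune cell after short ischemia and 2.60 and 2.34 after long ischemia. By these names the groups did not overlap, with means of 71.1% ± 1.53 after long and 58.0% ± 6.74 after short ischemia (SD, n = 2 libraries each). The limma difference was 0.58 on the logit scale (SE 0.43, adjusted p = 0.437 over 9 classes, percent called 0), and 0.38 without IRF3. The result depended on the cluster names. In the authors' other annotation, made on 20 libraries, immune clusters held 36.6% of cells in IRF3, 49.5% in IRF11, 51.0% in IRF4 and 42.2% in IRF7, so that the groups overlapped. A cluster called Fibro there, which holds most Mono_1 cells, is not counted as immune in those shares, and with it, a choice made after the data were seen, they were 42.3%, 57.0%, 63.4% and 63.2%, without overlap. These still lay below the shares by the main names. Among the cells still not counted were T cell_2 cells called PT there, 210 of 380 in IRF3, 151 of 342 in IRF11, 246 of 522 in IRF4 and 80 of 191 in IRF7. Because shares of 1 library sum to a fixed total, a higher immune share lowers every non-immune share of all cells, and the share within the compartment is therefore given beside it.

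The distal nephron showed the widest gap among epithelial cells. LOH, the loop of Henle cells that dilute the urine by salt reabsorption, held 9.88% of cells in IRF3 and 11.2% in IRF11 but 4.22% in IRF4 and 4.36% in IRF7. The intervals of the short libraries (8.82 to 11.0% and 10.3 to 12.2%) and of the long libraries (3.67 to 4.83% and 3.52 to 5.33%) did not meet. Means were 4.29% ± 0.0976 after long and 10.6% ± 0.960 after short ischemia, so LOH was 2.46-fold lower in long, at a logit difference of -0.96 (SE 0.44, limma adjusted p = 0.233). Of non-immune cells LOH made up 21.1% and 30.2% after short and 15.2% and 14.6% after long ischemia, a narrower gap of 1.72-fold (limma, logit difference -0.66, adjusted p = 0.482, and -0.42 without IRF11).

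DCT, the distal convoluted tubule that carries the thiazide-sensitive sodium chloride transport, gave the smallest p of all cells. Its share was 6.44% in IRF3 and 6.12% in IRF11, against 2.11% in IRF4 and 1.60% in IRF7. The libraries within a group lay close together and the groups lay apart, with means of 1.86% ± 0.362 and 6.28% ± 0.226. DCT was 3.38-fold lower after long ischemia (limma, logit difference -1.27, SE 0.43, 95% interval -2.17 to -0.36, adjusted p = 0.159). The number of cells behind the lowest value was 33, in IRF7, and without that library the difference was -1.13 with an adjusted p of 0.857. Among non-immune cells DCT made up 13.8% and 16.4% after short and 7.60% and 5.34% after long ischemia, 2.33-fold lower (limma, logit difference -0.95, SE 0.44, adjusted p = 0.401).

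The 2 collecting duct clusters did not separate the groups. PC, the principal cells that reabsorb sodium and water, held 4.75% and 2.89% of cells after short and 2.65% and 3.15% after long ischemia. IC, the acid-base regulating intercalated cells, were few, with 33 and 24 cells (1.11% and 0.587%) after short and 30 and 6 cells (0.627% and 0.291%) after long ischemia (limma, logit difference -0.61, SE 0.50, adjusted p = 0.843, with -0.29 when IRF3 and -0.26 when IRF7 was left out). Both overlapped, and of non-immune cells PC was at 8.96% ± 1.70 after short and 10.0% ± 0.680 after long ischemia. The distal tubule class as a whole (LOH, DCT, PC and IC) made up 22.2% and 20.8% of cells after short and 9.62% and 9.40% after long ischemia. For the class the limma difference was -0.96 on the logit scale (SE 0.43, adjusted p = 0.358).

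Proximal tubule cells, which reabsorb most of the filtrate, differed more between the 2 IRI short libraries than between the groups. PT S1, the early convoluted segment, was at 6.47% in IRF3 and 2.18% in IRF11, with 3.51% in IRF4 and 4.02% in IRF7 between them. PT S3, the straight segment of the outer medulla, was at 8.19% and 2.45% after short and 4.14% and 2.33% after long ischemia. Together they made 14.7% of cells in IRF3 and 4.63% in IRF11, a 3.17-fold gap inside 1 group, against 7.65% and 6.35% after long ischemia. The limma difference for the class was -0.20 on the logit scale (SE 0.49, 95% interval -1.23 to 0.84), and it ran from -0.83 without IRF11 to 0.43 without IRF3. For PT S3 alone it was -0.39 (SE 0.52, limma adjusted p = 0.843). For PT S1 the difference was -0.0048 (SE 0.47, limma adjusted p = 0.992), and it ran from -0.57 to 0.56 as single libraries were left out. PT S3 as a share of proximal tubule cells was 55.9% and 52.9% after short and 54.1% and 36.6% after long ischemia. These shares also depended on the names. In the other annotation T cell_2 cells made up 65.4%, 74.4%, 66.5% and 70.8% of the cluster PT in IRF3, IRF11, IRF4 and IRF7. In IRF11, 34 of 100 PT S3 cells were called DCT1 there. With cells kept only where both annotations gave the same broad class, a choice made after the data were seen, the PT S3 difference was -0.025. Podocytes (Podo), which form the glomerular filter, numbered 15, 5, 19 and 5 cells in IRF3, IRF11, IRF4 and IRF7, or 0.506%, 0.122%, 0.397% and 0.242% of all cells, and overlapped between the groups.

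**Figure D3:**
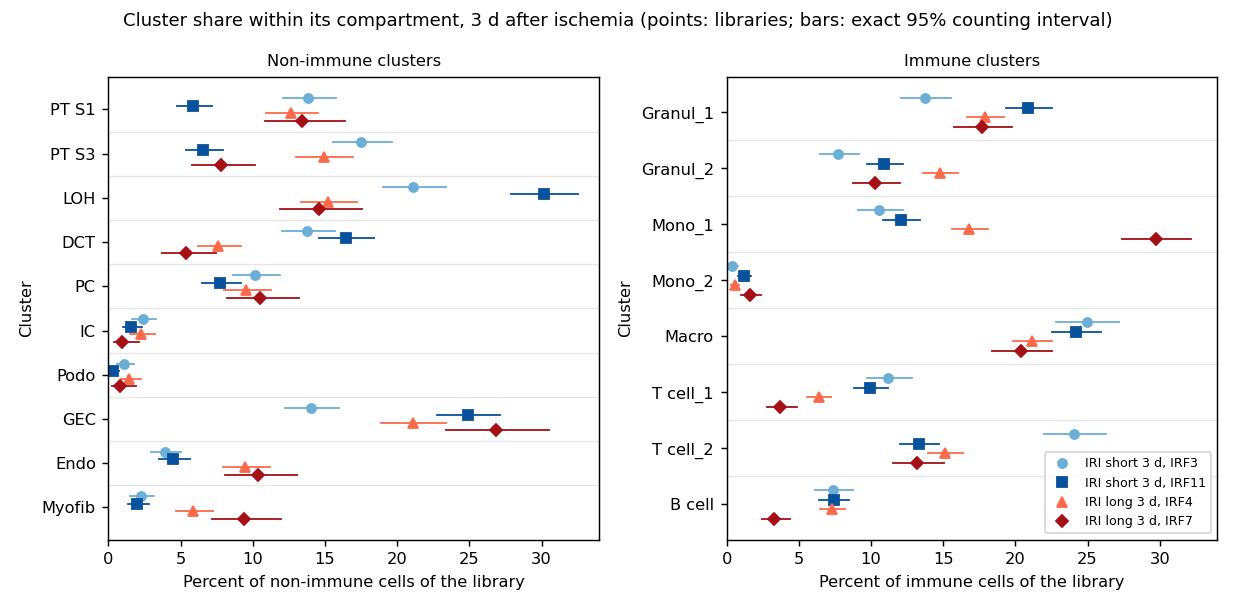
Share of non-immune cells (left) or immune cells (right) for each cluster (x axis, percent), with 1 point for each day 3 library and its exact 95% counting interval. Endo and Myofib lie higher in both IRI long libraries, Macro and T cell_1 lower, and the PT clusters of the IRI short libraries lie far apart.

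Among non-immune cells, Myofib and Endo were higher in both IRI long libraries. Myofib, the contractile and matrix-producing stromal cells, made up 2.23% of non-immune cells in IRF3 and 1.97% in IRF11, against 5.87% in IRF4 and 9.39% in IRF7. Both long libraries lay above both short ones, and their counting intervals (4.67 to 7.27% and 7.20 to 12.0%) did not reach those of the short libraries (1.52 to 3.16% and 1.33 to 2.80%). The mean was 7.63% ± 2.49 after long and 2.10% ± 0.186 after short ischemia, 3.63-fold higher (limma, logit difference 1.31, SE 0.46, 95% interval 0.36 to 2.27, adjusted p = 0.171). Of all cells the gap was 2.50-fold, from 1.04% and 0.734% to 1.63% and 2.81% (limma adjusted p = 0.233).

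The Myofib cells of IRF7 were named differently by the 20-library annotation. In that annotation 62 of 78 Myofib cells of IRF4 (79.5%) were SMC, the label for smooth muscle cells, but in IRF7 only 23 of 58 (39.7%) were, and 22 (37.9%) were PST, a proximal straight tubule label. With cells kept only where both annotations gave the same broad class, a choice made after the data were seen, the Myofib difference was 1.14 on the logit scale within the compartment (limma adjusted p = 0.386). SMC, the label that 127 of the 197 day 3 Myofib cells (64.5%) carried, overlapped between the groups. It held 4.85% and 2.03% of all cells after short and 4.37% and 3.25% after long ischemia. Its limma difference within the compartment was 0.26 (SE 0.44, adjusted p = 0.863), or 0.53 (SE 0.44, adjusted p = 0.555) with the cluster Fibro of that annotation counted as immune, a choice made after the data were seen. SMC did not hold Myofib cells alone. Its largest source was Macro in IRF3 (50 of 144 cells) and IRF11 (27 of 83) and T cell_2 in IRF4 (67 of 209). Myofib was the largest source only in IRF7 (23 of 67), so SMC shares do not stand in for those of Myofib.

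Endo, the endothelial cluster outside the glomerular one, made up 3.89% and 4.47% of non-immune cells after short and 9.48% and 10.4% after long ischemia. These pairs were tight and did not overlap, with means of 9.92% ± 0.619 and 4.18% ± 0.408, a 2.37-fold higher share after long ischemia (limma, logit difference 0.92, SE 0.52, adjusted p = 0.414). GEC, the cluster named for glomerular endothelial cells, did overlap. It held 14.0% and 24.9% of non-immune cells after short and 21.1% and 26.9% after long ischemia, and 6.57%, 9.28%, 5.85% and 8.04% of all cells in IRF3, IRF11, IRF4 and IRF7. Endo made up 21.7% and 15.2% of the endothelial cells (GEC and Endo) after short ischemia and 31.0% and 27.8% after long ischemia, while the 2 clusters together kept 9.67% ± 1.80 and 9.82% ± 1.88 of all cells (limma, pair difference 0.62 on the logit scale, 0.41 without IRF11, SE 0.54, adjusted p = 0.530 over 5 pairs, percent called 0, with 0 of 5 pairs at an unadjusted p under 0.05).

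Among the monocyte and macrophage clusters the difference lay in Mono_1. Mono_1, named for monocytes that circulate and enter injured tissue, held 5.63% of all cells in IRF3 and 7.56% in IRF11 but 12.1% in IRF4 and 20.8% in IRF7. Both long libraries were above both short ones, and IRF7 was well above IRF4. The mean was 16.5% ± 6.14 after long and 6.60% ± 1.37 after short ischemia, 2.50-fold higher (limma, logit difference 1.00, SE 0.43, 95% interval 0.10 to 1.91, adjusted p = 0.233). Without IRF7 the difference was 0.68 with an adjusted p of 0.991. Of immune cells Mono_1 made up 10.6% and 12.1% after short and 16.8% and 29.7% after long ischemia, 2.06-fold higher (limma, logit difference 0.83, adjusted p = 0.479), and without IRF7 that difference was 0.46.

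Macro, the macrophages that clear debris and support repair, held nearly level shares of all cells, at 13.3% and 15.2% after short and 15.3% and 14.3% after long ischemia. Within the larger immune compartment of the long libraries this was 21.2% and 20.4%, below the 25.0% and 24.2% of the short libraries, a 1.18-fold gap that exceeded the spread inside both groups (limma, logit difference -0.22, SE 0.58, adjusted p = 0.835). Macro as a share of monocytes and macrophages was 69.5% and 64.6% after short and 54.9% and 39.4% after long ischemia. The limma difference for this pair was -0.83 on the logit scale (SE 0.55, adjusted p = 0.530), with -0.51 when IRF7 and -1.14 when IRF4 was left out. Mono_2 was a minor cluster with 6, 31, 19 and 23 cells in IRF3, IRF11, IRF4 and IRF7, and its shares of 0.202% and 0.759% after short overlapped those of 0.397% and 1.11% after long ischemia.

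The Mono_1 name was not shared by both annotations. Of the 1487 day 3 Mono_1 cells, 1375 (92.5%) were called Fibro in the 20-library annotation, and 89.2%, 87.4%, 94.7% and 94.4% were in IRF3, IRF11, IRF4 and IRF7. Macro cells stayed Macro in 91.8% of cases. Fibro as a share of a library followed the same order as Mono_1, at 5.66%, 7.59%, 12.4% and 20.9% in IRF3, IRF11, IRF4 and IRF7 (limma, logit difference 1.01, SE 0.41, adjusted p = 0.167 over 19 clusters). Which name is right could not be told from these tables, and the class totals depend on it. With Fibro taken as a stromal cluster, the immune difference shrank from 0.58 to 0.15 on the logit scale and that of monocytes and macrophages from 0.55 to 0.089. With Fibro counted as monocytes, a choice made after the data were seen, they were 0.56 and 0.58.

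Granulocytes, the short-lived neutrophil lineage, were split between 2 clusters. Granul_1 held 7.31% of cells in IRF3 and 13.1% in IRF11, with 12.9% in IRF4 and 12.4% in IRF7, so that 1 short library matched the long ones (limma, logit difference 0.28, SE 0.81, adjusted p = 0.938). Granul_2 was at 4.11% and 6.85% after short and 10.7% and 7.22% after long ischemia. Its groups did not overlap, but IRF11 and IRF7 were close, and the 1.63-fold difference between means was smaller than the 1.67-fold spread inside IRI short (limma, logit difference 0.54, SE 0.72, adjusted p = 0.843, with 0.27 when IRF3 and 0.33 when IRF4 was left out). Of immune cells both granulocyte clusters overlapped. Granul_2 as a share of granulocytes was 36.0% and 34.3% after short and 45.2% and 36.8% after long ischemia (limma, logit difference 0.25, SE 1.09, adjusted p = 0.825).

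Of the 3 lymphocyte clusters, T cell_1 was the one without overlap as a share of all cells. In the other annotation 32.2% of the day 3 T cell_1 cells were called NK (natural killer cells). That part was 23.2% in IRF3 and 30.6% in IRF11, against 38.2% in IRF4 and 44.4% in IRF7. T cell_1, named for T lymphocytes, held 5.97% and 6.24% of cells after short and 4.60% and 2.62% after long ischemia. The long libraries were both lower, with IRF7 the lowest, and the means were 3.61% ± 1.40 and 6.10% ± 0.195 (limma, logit difference -0.59, SE 0.54, adjusted p = 0.843). Without IRF7 the difference was -0.30. Of immune cells T cell_1 made up 11.2% and 9.95% after short and 6.37% and 3.73% after long ischemia, 2.09-fold lower (limma, logit difference -0.83, SE 0.47, adjusted p = 0.414, and -0.55 without IRF7). T cell_2 overlapped at 12.8% and 8.37% after short and 10.9% and 9.25% after long ischemia. Of its 1435 day 3 cells, 687 (47.9%) were called PT in the other annotation and 391 (27.2%) T cell.

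T cell_2 made up 68.2% and 57.3% of T cells after short and 70.4% and 78.0% after long ischemia (limma, logit difference 0.53, SE 0.52, adjusted p = 0.530, with 0.30 when IRF11 and 0.33 when IRF7 was left out). B cells, the antibody-forming lineage, held 3.91% and 4.65% of all cells after short and 5.27% and 2.33% after long ischemia. Of immune cells they held 7.35% and 7.41% after short and 7.29% and 3.32% after long ischemia, so that the absence of overlap rested on 0.0526 percentage points between IRF3 and IRF4. All lymphocytes together (T cell_1, T cell_2 and B cell) formed 42.6% and 30.7% of immune cells after short and 28.8% and 20.3% after long ischemia. Of all cells they overlapped, at 22.7% and 19.3% after short and 20.8% and 14.2% after long ischemia (limma, logit difference -0.24, SE 0.49, adjusted p = 0.782).

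**Figure D4:**
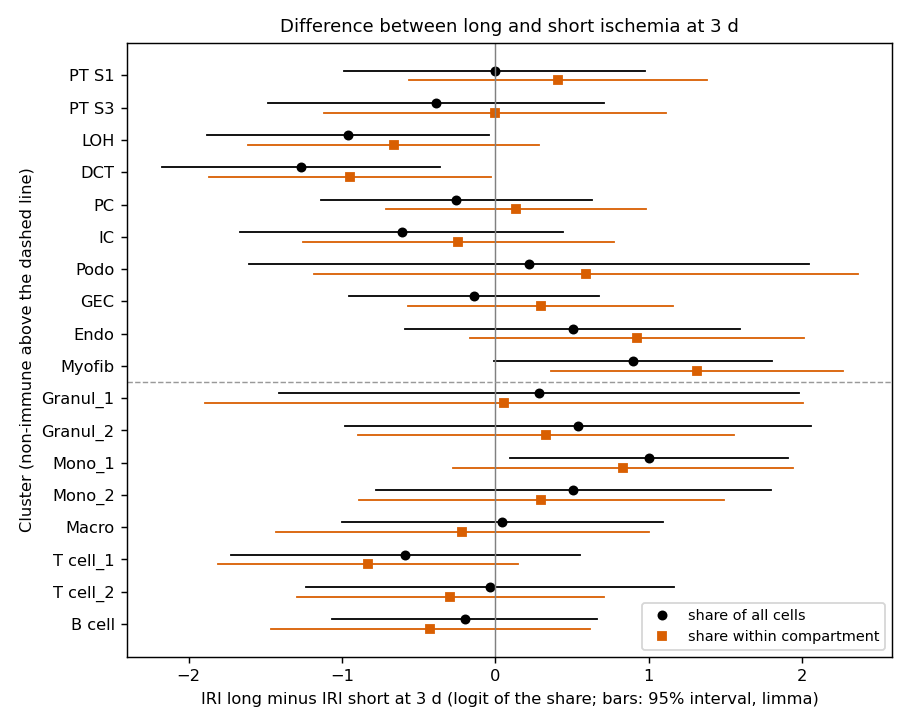
IRI long minus IRI short at 3 d for each cluster on the logit scale (x axis), as share of all cells (black circles) and within the compartment (orange squares), with the 95% interval of the limma fit. Of all cells the intervals of LOH, DCT and Mono_1 lie off 0, and within compartments those of DCT and Myofib do, before adjustment for 18 clusters.

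Changing the base from all cells to the compartment turned the sign of the fitted difference for some clusters whose groups overlapped, such as GEC (-0.14 of all cells, 0.30 within the compartment), PC (-0.26 and 0.14) and PT S1 (-0.0048 and 0.41). Macro also moved from 0.046 to -0.22. DCT, LOH and T cell_1 stayed negative and Endo, Myofib, Granul_2 and Mono_1 stayed positive on both bases.

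Set against the 6 control libraries, the day 3 shares of all cells of these clusters lay in different places. Immune cells made up 6.11 to 17.8% of control cells, so shares of all cells also reflect the size of the immune compartment. The shares of LOH, DCT and Mono_1 within their compartments were not set against the controls here. Of all cells, the control libraries held 10.1 to 27.5% LOH and 4.90 to 15.4% DCT. On this base both IRI long libraries lay below the whole control range for both clusters. The short libraries lay inside it for DCT, and for LOH IRF11 lay inside and IRF3 (9.88%) just below. Mono_1 made up 0.592 to 1.86% of all control cells and Myofib 0.0740 to 0.308%, lower on this base than in any day 3 library. Mono_2 was not found in any control library. By their shared barcodes, 5 of the 6 control libraries drew on a smaller barcode set (about 746100 barcodes) than the other control library, norm5, and the IRI libraries (about 3549000), so library preparation and control status cannot be told apart for those 5. In norm5 the shares of all cells were 27.5% for LOH, 15.4% for DCT, 1.86% for Mono_1 and 0.135% for Myofib. All 4 day 3 libraries belonged to the larger set.

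Seen over time, some of the day 3 differences had counterparts at 1 d and 14 d and some did not. LOH was lower after long than after short ischemia in all libraries at each day, with means of 15.3% against 28.3% at 1 d and 3.50% against 14.1% at 14 d. DCT was likewise lower, with 5.09% against 8.12% at 1 d and 2.64% against 10.4% at 14 d. At 14 d both passed the limma test of all cells (logit differences -1.52 and -1.44, adjusted p = 0.0130 for each), where 6 of 18 clusters did (percent called 33.3). Within compartments 0 of 18 passed at 14 d (limma, percent called 0, with 2, Podo and Granul_2, at an unadjusted p under 0.05), and the differences were -0.64 for LOH and -0.54 for DCT (adjusted p = 0.382 for each).

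Endo among non-immune cells was 8.20 to 13.6% after long and 1.71 to 3.14% after short ischemia at 1 d, and the groups overlapped at 14 d. Myofib followed another course. Its share of non-immune cells after long ischemia was 2.08% on day 1, then 7.63%, and 0.106% on day 14, and after short ischemia the same days gave 0.722%, 2.10% and 0.261%, so the long libraries lay above at 1 d and 3 d and below at 14 d. The position on day 14 rested on 1 and 2 Myofib cells after long and 7 and 10 after short ischemia. Mono_1 overlapped between the ischemia times at 1 d (9.80% and 8.67% of all cells) and 14 d (8.13% and 6.59%), and as a share of all cells its libraries separated only at 3 d. Of immune cells they also separated at 1 d, in the opposite direction, with a share 1.17-fold lower after long than after short ischemia (22.3%), and overlapped at 14 d.

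**Figure D5:**
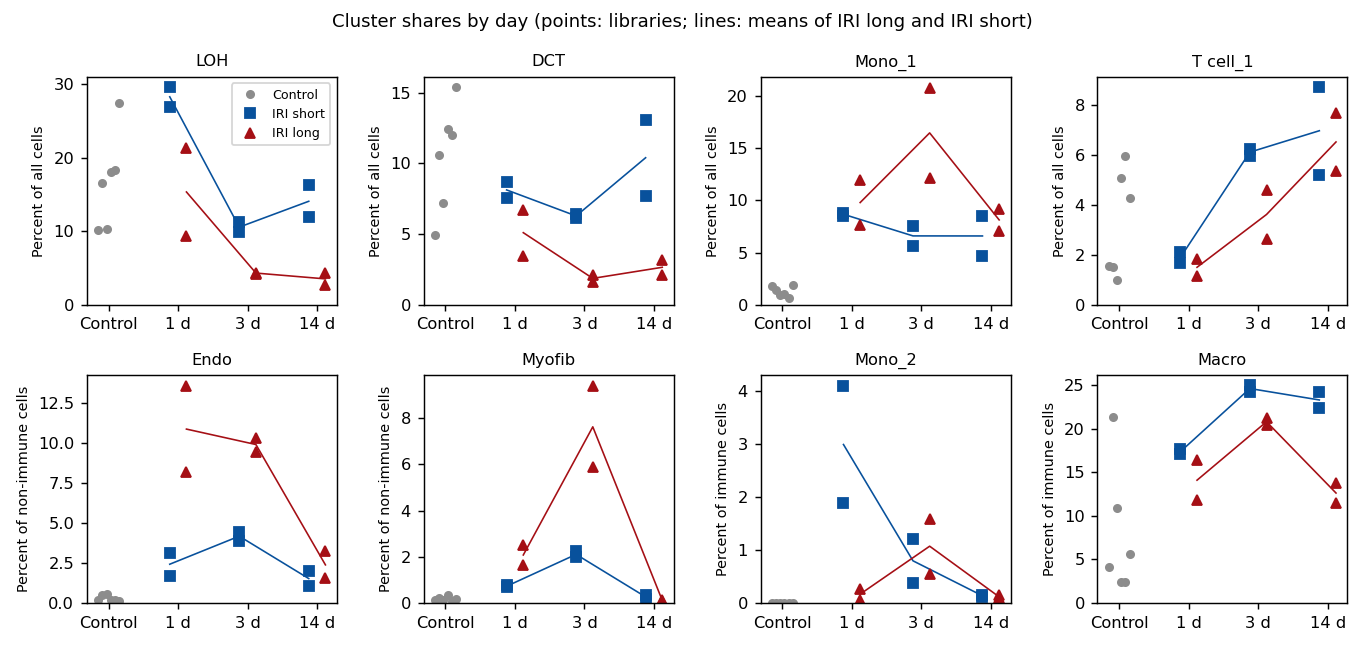
Shares of 8 clusters (y axis, percent of all cells in the upper panels and of the compartment in the lower panels) in control libraries (grey) and at 1, 3 and 14 d after short (blue) or long (red) ischemia, with 1 point for each library and lines through the means. Myofib peaks at 3 d after either ischemia time, and LOH and DCT stay lower in IRI long at each day.

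The day 3 difference was then tested against the mean of the differences at 1 d and 14 d in the same limma fit. No cluster passed an adjusted p of 0.05 (0 of 18 on either base, percent called 0 for both), with 2 clusters of all cells (Myofib and Mono_2) and 1 within compartments (Mono_2) at an unadjusted p under 0.05. The contrast for Myofib was 1.27 on the logit scale of all cells (SE 0.53, adjusted p = 0.306) and 1.11 within the compartment (SE 0.56, adjusted p = 0.553). The long minus short difference of Myofib was 0.80 on day 1, 0.90 on day 3 and -1.54 on day 14 of all cells, so the contrast rested largely on day 14 and its few cells. Mono_2 gave 1.72 of all cells (SE 0.75, adjusted p = 0.306) and 1.89 within the compartment (SE 0.70, adjusted p = 0.241). Its libraries overlapped at 3 d, so this contrast rested largely on 1 d, when Mono_2 made up 0.166% of immune cells after long and 2.99% after short ischemia (limma, logit difference -2.97, adjusted p = 0.000809, percent called 5.56). For Mono_1 and DCT the contrast was 0.82 (adjusted p = 0.629, and 0.49 without IRF7) and -0.27 (adjusted p = 0.947) of all cells, and a time course particular to day 3 was not shown for either.

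In the 20-library annotation the shares of labels that name DCT were also lower after long ischemia, though these labels did not hold DCT cells alone. Those of SMC, which held Myofib, Macro and T cell_2 cells, overlapped. DCT cells were spread over DCT1 (37.0%), DCT1, DCT2 (25.9%) and other labels. Both named labels were lower after long ischemia, by limma logit differences of -1.54 (SE 0.48) and -1.08 (SE 0.32). The limma adjusted p was 0.0512 for each over 19 clusters, the smallest of any cluster there. At day 3 the label DCT1, DCT2 took more LOH cells (299) than DCT cells (149), so its share does not stand in for that of DCT. The LOH cluster of that annotation differed by -0.89 (SE 0.49, adjusted p = 0.416). Of all cells, 0 of 19 clusters passed and 3 (DCT1, DCT1, DCT2 and Fibro) had an unadjusted p under 0.05. Cells given the same broad class by both annotations made up 80.4% in IRF3, 82.6% in IRF11, 76.2% in IRF4 and 67.4% in IRF7, and 85.7%, 89.9%, 88.1% and 88.1% when Fibro was counted as myeloid.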

How the data were processed

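The report used per-cell tables deposited by the authors: cluster name, group with day, and 2 UMAP coordinates (a score without unit) for 113579 cells of 18 libraries, and the same for 136794 cells of 20 libraries (the second annotation). According to the paper's methods and the labels, the authors made 10X 3′ v3 libraries, aligned them with Cell Ranger to mm10, filtered cells in Seurat by gene number and mitochondrial share, removed doublets with DoubletFinder, integrated with LIGER, clustered by the Louvain method and named clusters by hand, so shares reflect those filters and names.

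Libraries were identified by barcode prefix and grouped by the deposited group table. Counts of cells per cluster were divided by all cells or by cells of the immune or non-immune compartment, 0.5 cells were added, and logits were fitted in limma 3.58.1 (R 4.3.3; moderated, 18 libraries, 7 group means, Benjamini-Hochberg, threshold 0.05). The p-values rest on the spread between libraries inside the 7 groups. That includes the 6 control libraries, 5 of which drew on the smaller barcode set. Single shares carry 95% exact intervals. The clusters, classes and pairs were chosen with earlier results of these data known. Every cluster is named with its shares. Full statistics were set for any cluster past the threshold, for PT S1, PT S3, Granul_1, Granul_2 and Macro, and for the 5 largest logit differences on either base. Alternatives were other scales, bases, subsets of libraries, thinning to 2064 cells, array weights, pooled cells and the second annotation. Transcript counts were not analysed here. Tables were handled in Python 3.11.15 with pandas 2.3.3.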

Additional observations from a re-analysis of the deposited data

How the results depend on the processing

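No cluster, class or pair passed the adjusted threshold in 152 of 158 refits of the 6 sets of tests, including all 108 that left out 1 library, and the number of calls was then 0 throughout (range 0 to 0). The other 6 refits made 1 or 2 calls. On the arcsine square root scale there was 1 call of all cells (Mono_1, adjusted p = 0.0196) and there were 2 within compartments (Endo, adjusted p = 0.0327, and Myofib, adjusted p = 0.00300). With the 12 IRI libraries only, there was 1 call of all cells (DCT, adjusted p = 0.0433), 1 within compartments (Myofib, adjusted p = 0.0421) and 1 among classes (distal tubule, adjusted p = 0.0282). With the 4 day 3 libraries only, there was 1 among classes (distal tubule, adjusted p = 0.0373). All calls had the direction given in the report, and the cause of these changes was not tested. Without IRF7, the smallest library, 0 clusters had even an unadjusted p under 0.05 on either base. Where a library was left out, its group's other library was assumed to vary like the other groups.

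Of 58 fitted differences, 38 kept their sign under every alternative. The sign of PT S1 of all cells turned to 0.038 after thinning, 0.027 as a centred log-ratio and 0.012 with cells of the same class in both annotations, and PT S3 within its compartment turned to 0.39 with the last. Leaving out 1 library turned the sign of 20 differences, all of clusters or classes whose groups overlapped. Of all cells the ranges were -0.57 to 0.56 (PT S1), -1.02 to 0.25 (PT S3), -0.51 to 0.0029 (PC), -0.46 to 0.90 (Podo), -0.33 to 0.047 (GEC), -0.040 to 0.61 (Granul_1), -0.12 to 1.14 (Mono_2), -0.033 to 0.12 (Macro), -0.27 to 0.20 (T cell_2) and -0.62 to 0.22 (B cell). Within compartments they were -0.067 to 0.88 (PT S1), -0.55 to 0.55 (PT S3), -0.013 to 0.28 (PC), -0.64 to 0.16 (IC), -0.057 to 0.65 (GEC), -0.20 to 0.31 (Granul_1), -0.25 to 0.85 (Mono_2) and -0.65 to 0.067 (T cell_2), and for classes -0.83 to 0.43 (PT) and -0.13 to 0.17 (endothelial). The filter on small clusters removed none. No paired analysis was possible because the cell names do not carry the sample number of the labels.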

Other observations

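The GEC cluster lay in 2 separate islands of the authors' map, split at 5 on UMAP axis 2, a boundary chosen after the map had been seen, with at most 2 cells of any day 3 library near it. The lower island held 45.6% of GEC cells in IRF3 and 60.7% in IRF11, against 23.6% in IRF4 and 33.1% in IRF7, so that the day 3 groups did not overlap. The same order was found at 1 d, with 44.8% and 63.2% after short and 21.3% and 33.7% after long ischemia. At 14 d the lower island held 77.1% and 81.3% after short and 80.1% and 88.5% after long ischemia, and in the 6 control libraries 65.7 to 96.0%. As a share of the whole library the upper island was 3.57% and 3.65% at 3 d after short and 4.47% and 5.38% after long ischemia. Cells of either island were mostly named GEC, Endo in the other annotation, at 89.9% to 99.1% in each day 3 library. No test was run on this split, and which endothelial cells the islands hold was not tested.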
